A study of Bos grunniens with 24 samples.

Results

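The jejunum is the middle stretch of the small intestine, and its absorptive cells, the enterocytes, carry a brush border of microvilli that holds digestive enzymes and nutrient transporters. The comparison here concerns 16 of the 24 RNA sequencing libraries of yak calf (Bos grunniens) jejunal tissue, all 8 from untreated control calves (CON) and all 8 from calves that were challenged with enterotoxigenic Escherichia coli after pretreatment with Pediococcus pentosaceus NQ0729, a lactic acid bacterium (PET). The other 8 libraries came from calves challenged without the bacterium (ETEC) and are set beside them. The labels give no strain, sex, age, dose, time or position along the jejunum, and they name replicate biosamples but no animals, so p-values measure only the spread between these samples.

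The 16 libraries were split by their own values, selected on the FPKM of 11 genes. The score of a library was the geometric mean of FPKM + 0.1 (FPKM is a fragment count scaled by gene length and by the mapped fragments of the library) over these brush border and epithelial genes, and a library was high at a score of 5 or above and low below it. This gave 10 high libraries (CON-1, 2, 3, 5 and 6, and PET-1, 2, 4, 5 and 7) and 6 low libraries (CON-4, 7 and 8, and PET-3, 6 and 8), and values below follow this order. Scores ran from 11.2 to 40.9 in high CON and from 10.6 to 84.5 in high PET, against 1.05 to 1.19 in low CON and 0.955 to 1.31 in low PET. The library just inside the cut was PET-2 at 10.6 and the one just outside was PET-6 at 1.31, so no library lay near the cut. All 8 ETEC libraries had low scores, from 0.921 to 1.34. Because the libraries were sorted by measured values, differences between high and low are a description and carry no test.

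**Figure D1:**
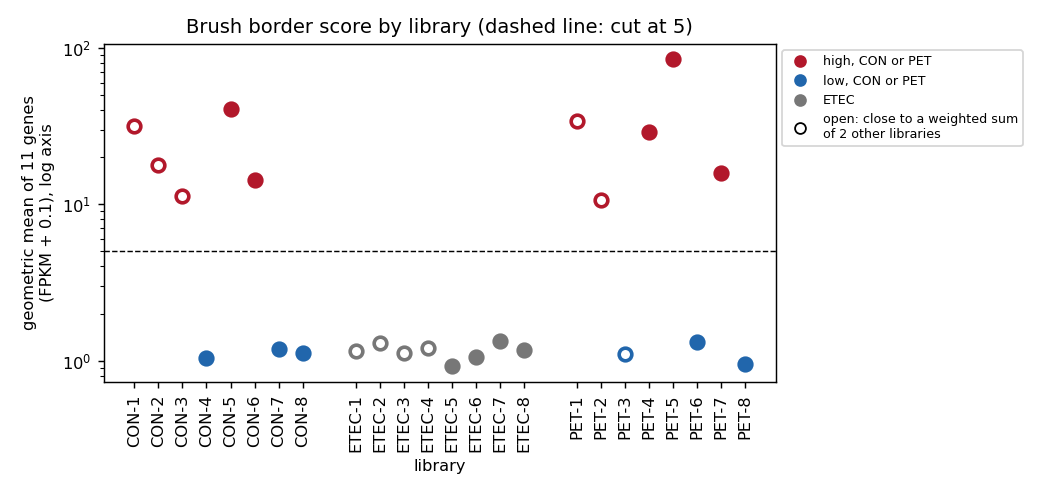
Score of each of the 24 libraries (geometric mean of FPKM + 0.1 over 11 genes, log axis), in red for high CON or PET, blue for low CON or PET and grey for ETEC, with open circles for libraries close to a weighted sum of 2 others. The 10 high libraries sit between 10.6 and 84.5 and the other 14 between 0.921 and 1.34, with none near the dashed line at 5.

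Brush border hydrolases such as aminopeptidases, angiotensin-converting enzymes and carboxypeptidases cut peptides at the cell surface, and sodium- or proton-coupled carriers beside them take up the amino acids, vitamins, bile acids and inorganic ions. Which of these genes a stretch of gut expresses is known to change from duodenum to ileum and from crypt to villus. In bulk tissue, fewer cells of a type and less RNA per cell cannot be told apart.

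The table analysed here lists 639 genes that the authors had called in at least 1 comparison of groups, so the genes are not a sample of the transcriptome. Relative sequencing depth, from the ratio of count to FPKM, was 0.814 to 1.30 in the high, 0.718 to 0.974 in the low and 0.848 to 1.501 in the ETEC libraries. Counts over the listed genes were 492829 to 1209769 per high library, 299776 to 709830 per low library and 466708 to 863801 per ETEC library. Several libraries stood close to a weighted sum of 2 others (residual under 0.8 of that of the best single library), namely CON-1, 2 and 3, PET-1, 2 and 3, and ETEC-1 to 4. CON-2 lay close to 61.6% of the low CON-7 with 38.4% of the high CON-5, CON-3 to 57.4% of the high CON-6 with 42.6% of the low CON-4, and PET-2 to 50.7% of the high PET-7 with 49.3% of the low PET-6. CON-1 lay close to a sum of the high CON-5 (50.2%) and CON-6 (49.8%), PET-1 to one of the high PET-4 (89.9%) and PET-5 (10.1%), and PET-3 to one of the low PET-8 (54.6%) and PET-6 (45.4%). Counts below are therefore also given for the 10 libraries of CON and PET outside this set. The main tests treat every library as independent, and if those close to a sum are not, the adjusted p are too small.

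The 11 genes that set the score are given as a description. ANPEP, aminopeptidase N (ENSBGRG00000006001, chromosome 17, 21793317 to 21809835 in the authors' table, whose build is not given in the sources used here), stood at 658, 311, 353, 716 and 490.0 FPKM in high CON and 8.72, 9.71 and 9.56 in low CON. In PET it stood at 963, 266, 998, 1374 and 474 FPKM in the high libraries and 9.46, 16.4 and 7.41 in the low ones. The lowest high library was thus more than 10-fold above the highest low one in each group. Levels of ENPEP, glutamyl aminopeptidase, ran from 21.9 to 376 FPKM in the high libraries and 2.60 to 3.76 in the low ones. The amino acid carriers showed ranges of 28.1 to 132 against 0.884 to 1.43 for SLC6A19 (neutral amino acids), 6.10 to 134 against 0.0902 to 0.207 for SLC7A9 (cystine and dibasic amino acids) and 7.68 to 37.0 against 1.25 to 3.17 FPKM for SLC1A1 (acidic amino acids). SLC26A3, the chloride and bicarbonate exchanger, ranged over 14.5 to 79.4 against 0.804 to 1.36, SLC34A2, a sodium phosphate carrier, over 6.80 to 37.8 against 0.0143 to 1.61, and SLC23A1, a vitamin C carrier, over 15.6 to 63.9 against 3.59 to 4.65 FPKM. The ileal bile acid carrier SLC10A2 was the most uneven of the carriers within the high libraries, at 38.6, 37.1, 2.60, 83.0 and 3.90 FPKM in CON and 14.3, 4.22, 5.40, 135 and 5.23 in PET, against 0.455 to 1.13 in the low ones. Of the carbonic anhydrases, CA12 ranged over 1.49 to 19.8 against 0.101 to 0.412 FPKM. CA4 did not separate the libraries, at 0.184 to 11.01 FPKM in the high and 0.158 to 0.330 in the low ones.

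Outside these 11, 531 of the other 628 listed genes averaged 0.5 FPKM or more over the 16 libraries and were counted. A gene was called higher or lower in high where every high library lay beyond every low library within CON and also within PET, and where the difference on the log2(FPKM + 0.1) scale, taken within each group and averaged, was at least 1 in size. By this rule 87 genes (16.4%) were higher in the high libraries and 16 (3.01%) were lower. The median difference was 2.18 over the higher genes (2.23 within CON, 2.21 within PET) and -1.48 over the lower genes (-1.51 and -1.48), beside 0.32 over all genes counted. Over the 10 CON and PET libraries that were not near a sum, 96 genes (18.1%) were higher and 40 (7.53%) lower, with all 87 and all 16 among them. Leaving out libraries cannot undo a separation, and only the fold minimum can then drop a gene, so nothing is read from that overlap. On counts scaled by TMM library sizes, which centres the listed genes, the split was 51 higher against 55 lower, so higher genes made 48.1% of the calls instead of 84.5%, and the median over all genes counted was -0.23. Of the 87 genes, 42 have a symbol, and of the 16, 11 have one.

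**Figure D2:**
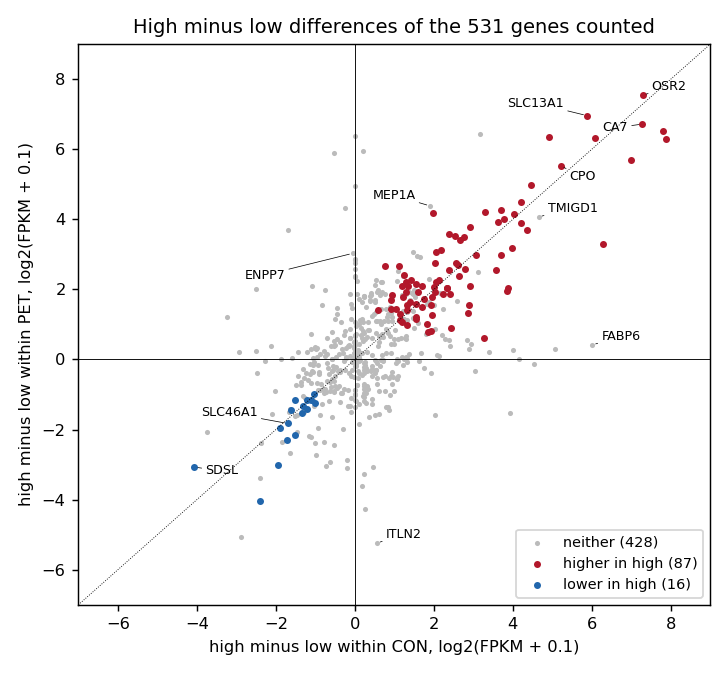
High minus low difference of each of the 531 genes counted, within CON (x axis) and within PET (y axis), both on the log2(FPKM + 0.1) scale, with the dotted line at equal differences. The 87 higher genes (red) lie in the upper right and the 16 lower genes (blue) in the lower left, while FABP6, ENPP7 and ITLN2 lie near an axis, with a difference near 0 in 1 group.

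The largest difference among genes with a symbol was in OSR2, a zinc finger transcription factor of the odd-skipped family (ENSBGRG00000004042, chromosome 18, 57069214 to 57076672). It stood at 54.6, 28.2, 27.1, 65.6 and 45.3 FPKM in high CON and 0.110, 0.158 and 0.252 in low CON. In PET the high libraries had 46.7, 20.2, 42.4, 102 and 39.9 FPKM and the low ones 0.0908, 0.196 and 0.136. No low library reached 0.3 FPKM and every high library was above 20, a difference of 7.41 ± 0.61 (SD within groups and classes, 16 libraries). OSR2 is in the list of intestinal transcription factors, 4 of which are in the table, with 2 higher and 2 neither.

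A carbonic anhydrase and several carriers were among the largest differences. CA7, a cytosolic carbonic anhydrase (ENSBGRG00000026902, chromosome 20, 12090367 to 12100143), stood at 24.8, 17.6, 6.78, 44.5 and 10.2 FPKM in high CON and 0, 0.0306 and 0 in low CON, and at 22.4, 4.76, 25.7, 22.5 and 7.50 against 0.0526, 0.0454 and 0 in PET. It had no count in 3 of the 6 low libraries, so the difference of 7.00 ± 0.89 depends on the pseudocount. SLC13A1, the sodium sulfate cotransporter (ENSBGRG00000024917, chromosome 4, 35470837 to 35588504), showed 11, 5.26, 5.58, 11.1 and 7.51 FPKM in high CON and 0.0532, 0.0384 and 0.0111 in low CON. In PET it showed 28.0, 8.40, 31.5, 29.6 and 12.1 FPKM in the high and 0.0550, 0.0570 and 0.0566 in the low libraries, a difference of 6.42 ± 0.59 over both groups. All low libraries were under 0.1 FPKM for this gene and all high ones above 5. SLCO4C1, an organic anion carrier, ranged over 4.43 to 25.3 FPKM in the high against 0.483 to 0.682 in the low libraries (4.05 ± 0.67), and SLC5A11, a sodium myo-inositol cotransporter, over 0.964 to 16.3 against 0.0186 to 0.169 (3.88 ± 1.05).

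Of the 14 nutrient transport genes in the table, 6 set the score and 8 were counted, of which 4 were higher, 1 lower and 3 neither (median 1.47), beside 16.4% higher and 3.01% lower over all genes counted. The higher ones were SLC13A1, SLC7A8, SLC7A7 and SLC52A3. SLC7A8, the light chain of a basolateral neutral amino acid exchanger, stood at 25.1, 16.3, 15.3, 29.5 and 17.9 FPKM in high CON against 4.36, 6.97 and 3.48 in low CON, and at 69.8, 21.4, 83.7, 31.9 and 32.7 against 5.09, 3.93 and 6.11 in PET (2.56 ± 0.59). SLC7A7, of a separate exchanger on the same membrane that passes dibasic amino acids to the blood, ranged over 20.5 to 82.6 FPKM in the high against 9.35 to 13.1 in the low libraries (1.84). SLC52A3, a riboflavin carrier, ranged over 0.996 to 3.20 against 0.195 to 0.520 FPKM (2.21 ± 0.38). The 3 in neither direction were SLC15A1 (PEPT1, the peptide carrier), SLC13A2 (a dicarboxylate carrier) and ABCC2 (an efflux pump). Of the ion and water transport list, 7 genes were in the table, 3 set the score and 3 were counted. CA7 and OTOP2 were higher, and SLC4A4, a basolateral sodium bicarbonate cotransporter, was at 9.98 to 33.6 FPKM against 7.49 to 11.7 and met neither rule. OTOP2, a proton channel, ranged over 0.760 to 8.35 against 0.357 to 0.658 FPKM (2.18 ± 1.00).

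Of 9 brush border peptidase and glycosidase genes in the table, 2 set the score and 7 were counted, of which 4 were higher, 0 lower and 3 neither (median 2.39), beside 16.4% higher and 3.01% lower over all genes counted. These shares stand beside every list count here, and nothing is read from a list of so few genes. CPO, carboxypeptidase O, which trims acidic residues from peptide ends (ENSBGRG00000007969, chromosome 2, 45554317 to 45587992), stood at 8.70, 6.11, 2.84, 13.8 and 2.49 FPKM in high CON and 0, 0.175 and 0.0304 in low CON, and at 22.9, 3.10, 30.9, 16.1 and 3.45 against 0.150, 0.0260 and 0.284 in PET (5.37 ± 1.16). ACE, angiotensin-converting enzyme, stood at 97.2, 50.7, 63.7, 89.95 and 84.0 FPKM in high CON against 13.7, 15.5 and 14.0 in low CON, and at 329, 80.1, 400.3, 63.9 and 126 against 12.3, 22.8 and 7.46 in PET (2.97 ± 0.79). Within PET, PET-1 and PET-4 were the highest for ACE. XPNPEP2, membrane aminopeptidase P, ranged over 9.05 to 37.9 against 2.36 to 4.15 FPKM (2.39). MEP1A, a meprin subunit, and ENPP7, an alkaline sphingomyelinase, were neither and are described with the uneven genes. ENPP3, a nucleotide hydrolase, was also neither, with a negative difference (-1.46 ± 1.89). For ENPP3, 6 of the 10 high libraries lay below every low one and 2 above every low one.

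Among the other large differences were UCP3, a mitochondrial carrier, at 0.560 to 49.2 FPKM in the high against 0 to 0.210 in the low libraries (4.72 ± 1.82), and TINAG, a basement membrane glycoprotein, at 0.335 to 8.68 against 0 to 0.0178 (3.98 ± 1.12). MESP2, a basic helix-loop-helix factor known from somite formation, was at 1.57 to 9.90 against 0.0805 to 0.329 FPKM (3.57 ± 0.73). MESP2 is a neighbour of the score gene ANPEP on chromosome 17 in the table's coordinates (21784251 to 21787400), and no strand setting or handling of shared reads is stated. Loci without an Ensembl identifier are called here by their number in the authors' table. The 2 largest differences without a symbol were in locus 3251 (7.16) and locus 3249 (7.09), both best matched by the authors' annotation to the aminopeptidase NAALADL1. They lie in a run of 7 higher loci on chromosome 29 (9030768 to 9060295), 3 of them with that match, whose differences ran from 2.08 to 7.16. The highest level in the run was at locus 3252, with 367, 232, 135, 529 and 170.5 FPKM in high CON and 127, 32.8, 70.6, 994 and 38.4 in high PET against 1.60 to 2.31 in the low libraries. Of the 87 higher genes, 30 (34.5%) lay within 100000 bp of another higher or score gene, and 166 of the 531 counted genes (31.3%) had a counted or score gene as near. The first share had far fewer genes to serve as neighbours, so the 2 shares are not comparable.

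Genes of 2 chemokines, a homing receptor and a gut peptide were also higher in the high libraries. CCL24 and CCL26, the 2 chemokine genes in the table, encode eotaxins that attract eosinophils through CCR3, and lie next to each other on chromosome 26. CCL24 stood at 37.9, 28.0, 15.2, 52.2 and 20.2 FPKM in high CON against 1.98, 3.14 and 1.36 in low CON, and at 11.8, 8.71, 11.7, 35.2 and 13.0 against 1.65, 1.84 and 1.58 in PET (3.35 ± 0.65). CCL26 stood at 69.6, 33.9, 34.5, 75.4 and 57.6 FPKM in high CON against 3.38, 3.69 and 3.21 in low CON, and at 10.7, 18.9, 7.81, 53.0 and 28.3 against 4.78, 5.92 and 3.27 in PET (2.95 ± 0.73). Both separated the classes in each group, and within PET the lowest CCL26 levels of the high libraries were in PET-1 and PET-4. Their receptor gene CCR3, the only eosinophil or mast cell gene of 21 listed that is in the table, was at 0.141 to 12.8 FPKM in the high and 2.50 to 4.48 in the low libraries and met neither rule. GPR15, a homing receptor of T cells (chosen after its values were seen), ranged over 4.67 to 43.3 against 2.26 to 5.27 FPKM (2.03). A locus that the authors' annotation matches to its ligand GPR15L (ENSBGRG00000026318, chosen in the same way) stood at 30.6, 23.1, 7.62, 47.3 and 12.4 FPKM in high CON and 26.1, 5.53, 5.15, 272 and 9.92 in high PET, against 0.601 to 1.45 in the low libraries (4.09). NTS, the gut peptide neurotensin, stood at 75.8, 40.7, 35.4, 85.1 and 52.7 FPKM in high CON against 3.83, 3.86 and 3.39 in low CON, and at 17.3, 14.6, 24.2, 12.8 and 25.0 against 4.56, 2.23 and 9.48 in PET (2.90 ± 0.58). It was the only higher one of 2 enteroendocrine genes, the other being CCK.

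**Figure D3:**
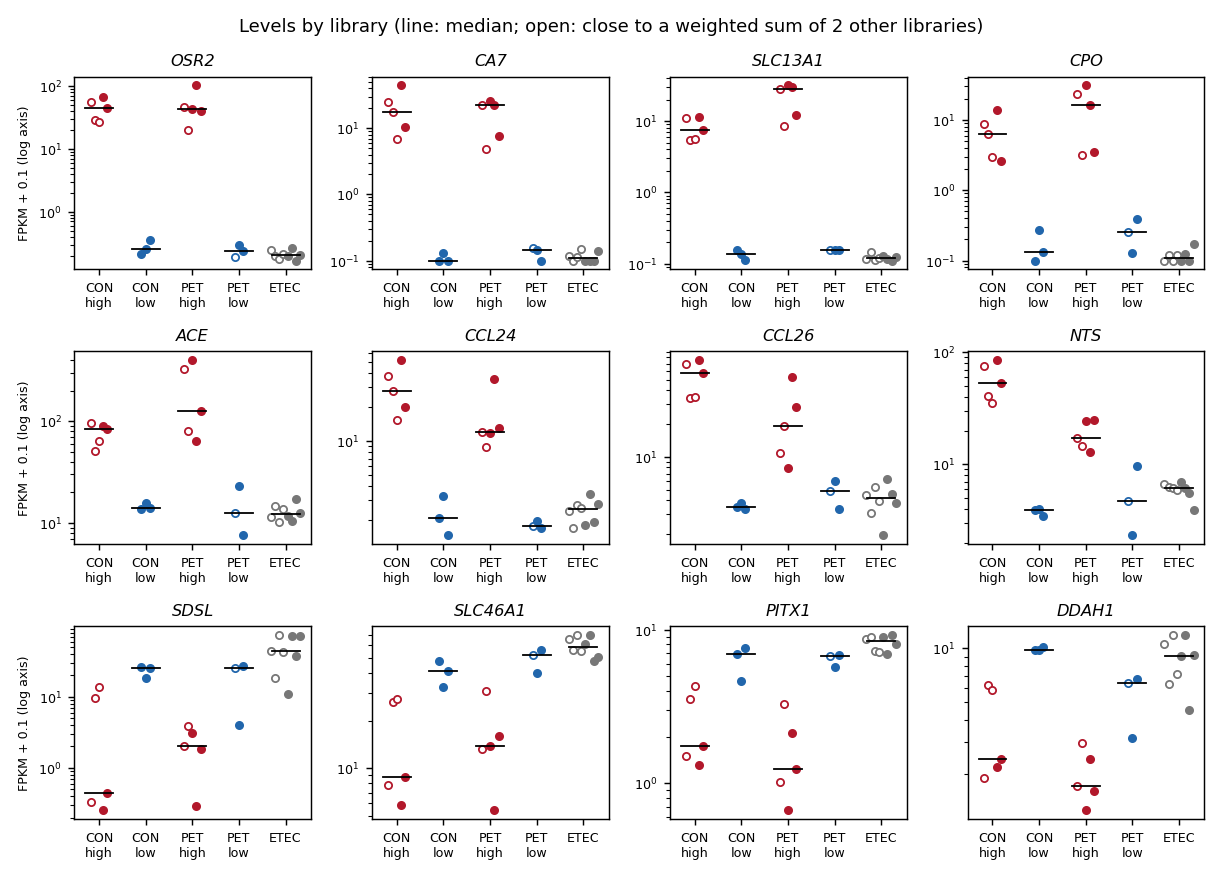
FPKM + 0.1 (log axis) of 12 genes in each library, by group and class, with a line at the median and open circles for libraries close to a weighted sum of 2 others. OSR2, CA7, SLC13A1, CPO, ACE, CCL24, CCL26 and NTS lie higher in the high libraries of CON and of PET, SDSL, SLC46A1, PITX1 and DDAH1 lie lower there, and the ETEC libraries lie near the low ones.

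On the FPKM scale the 16 lower genes were fewer than the 87 higher ones, and their median difference was smaller in size. That imbalance depended on the setting, with 51 higher and 55 lower genes by TMM. Without the libraries close to a sum there were 96 higher and 40 lower genes. SDSL, a serine dehydratase-like enzyme (ENSBGRG00000015962, chromosome 16, 67568164 to 67583712), stood at 0.233, 9.61, 13.6, 0.155 and 0.345 FPKM in high CON against 26.2, 18.1 and 25.5 in low CON, and at 1.96, 3.76, 2.95, 0.191 and 1.71 against 25.5, 3.90 and 26.7 in PET (-3.57 ± 1.95). The highest high CON libraries were CON-2 and CON-3, and the lowest low PET library, PET-6, was barely above the highest high one, PET-2. SLC46A1, the proton-coupled folate carrier of the upper small intestine (ENSBGRG00000024828, chromosome 19, 49173225 to 49181697), stood at 7.71, 26.0, 27.2, 5.76 and 8.71 FPKM in high CON against 47.6, 32.5 and 41.4 in low CON, and at 13.2, 30.6, 13.8, 5.32 and 15.8 against 51.8, 39.8 and 55.7 in PET (-1.76 ± 0.81). It was the only lower gene among the nutrient carriers. PITX1, a homeobox factor known from hindlimb and pituitary, stood at 1.39, 3.41, 4.21, 1.22 and 1.64 FPKM against 6.82, 4.53 and 7.53 in CON and at 0.913, 3.18, 0.569, 2.01 and 1.14 against 6.59, 5.62 and 6.75 in PET (-1.84 ± 0.70). OTOP3, a proton channel beside OTOP2 on chromosome 19, ranged over 0.752 to 5.03 FPKM in the high against 3.60 to 11.2 in the low libraries (-2.01 ± 0.83), so that these 2 related neighbours differed in opposite directions.

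DDAH1, which degrades asymmetric dimethylarginine, stood at 1.80, 6.14, 5.74, 2.07 and 2.33 FPKM in high CON against 9.75, 9.65 and 10.1 in low CON, and at 1.62, 2.86, 1.16, 2.31 and 1.51 against 6.29, 3.07 and 6.68 in PET (-1.53 ± 0.61). ALDH8A1 (a list member with a mean under 1 FPKM), an aldehyde dehydrogenase of tryptophan breakdown, was also lower, at 0.0246 to 0.762 against 0.555 to 1.54 FPKM (-1.93). Both were in a list of kynurenine, NAD and purine enzymes, where DDAH1 was placed although its substrate belongs to none of these. The other 3 of the 5 list members in the table were neither. The other lower genes that have a symbol and average at least 1 FPKM were C16orf89 (-1.44 ± 0.48), CFAP221, a ciliary gene (-1.32 ± 0.72), TARS1, threonyl-tRNA synthetase (-1.12 ± 0.44), and B4GALT6, which makes lactosylceramide (-1.02 ± 0.42). TARS1 was the most abundant of them, at 118 to 276 FPKM in the high and 293 to 630.3 in the low libraries. The 2 largest lower loci without a symbol were locus 2123 (-3.22) and ENSBGRG00000011879, matched to the forkhead factor FOXQ1 (-2.48). None of the 16 lay within 100000 bp of another lower gene.

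The libraries near a sum of a high and a low library were intermediate for the lower genes. Over the 16 lower genes, the median distance from the mean of the low libraries was -0.65 in CON-2, -0.58 in CON-3 and -0.81 in PET-2, and between -1.61 and -2.21 in the other 7 high libraries. Over the 87 higher genes it was 1.601 in CON-3, 1.36 in PET-2 and 2.05 in CON-2, and 1.903 to 3.41 in the other 7, so that CON-2 lay within their range. Without these 3 libraries, 93 genes were higher and 37 lower, with all 87 and all 16 among them, an overlap that the rule nearly fixes in advance. What made these libraries alike was not tested.

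**Figure D4:**
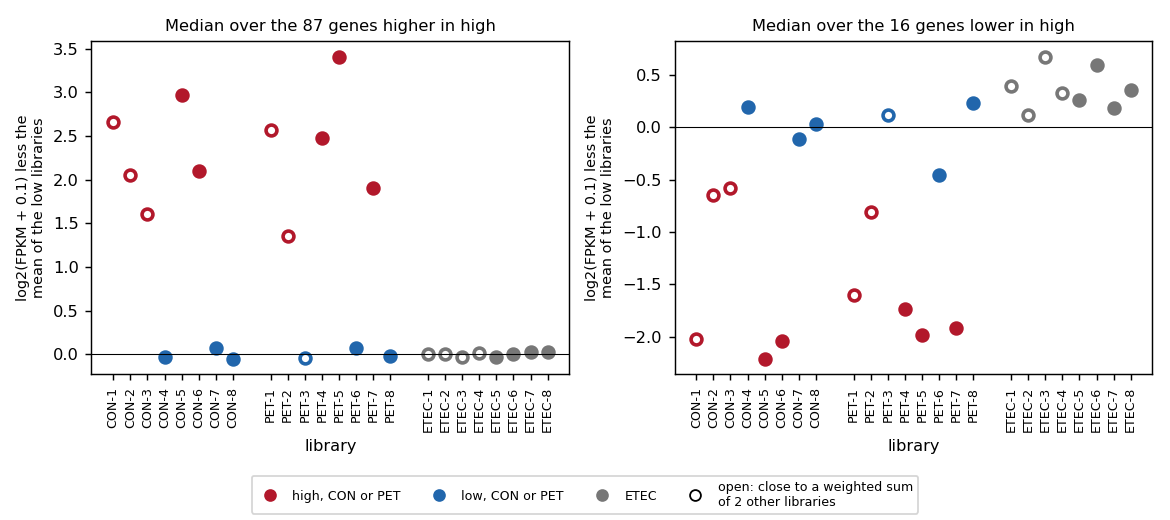
Median over the 87 higher genes (left) and the 16 lower genes (right) of log2(FPKM + 0.1) less the mean of the low libraries of the same group, for each library (ETEC: less the mean of all low libraries). CON-2, CON-3 and PET-2 lie at -0.65, -0.58 and -0.81 on the right, between the other high libraries and the low ones.

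Lists of genes known from the gut segments are given by their counts. Of 24 ileal genes, 8 were in the table and 7 counted, of which 4 were higher (OSR2, SLC13A1 and NTS among them), 0 lower and 3 neither (median 3.21), beside 16.4% higher and 3.01% lower over all genes counted. Of 20 proximal genes, 5 were counted, of which 0 were higher, SLC46A1 was lower and 4 were neither (median -1.76). Of these 4, ONECUT2 (-2.39), ADA (-1.89) and CCK (-1.48) had negative differences. IYD had a positive one (2.10), with 7 of 10 high libraries above every low one, so the proximal genes did not all go the same way. The summed level of the 7 ileal genes outside the score was 54.9 to 1107 FPKM in the high and 10.8 to 15.6 in the low libraries, and that of the 5 proximal genes 17.1 to 47.9 against 53.8 to 309. ONECUT2, a factor of the proximal gut, stood at 0.518, 3.67, 4.06, 0.426 and 0.967 FPKM in high CON against 9.28, 6.05 and 6.77 in low CON, and at 4.84, 5.18, 3.41, 0.0409 and 2.10 against 13.1, 4.83 and 16.2 in PET, where PET-6 was within the high range. The labels give no position along the jejunum, and the part of the site sampled in these differences was not tested.

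Several genes varied as much within a class as between the classes. FABP6, the ileal bile acid binding protein, stood at 479.6, 378, 13.2, 849 and 13.7 FPKM in high CON against 0.890, 2.76 and 2.38 in low CON, but at 3.39, 5.08, 1.43, 51.3 and 2.45 against 4.48, 4.22 and 2.82 in PET. It was above 300 FPKM in CON-1, CON-2 and CON-5 alone and above 50 also in PET-5. CON-1 lay close to a sum with 50.2% of CON-5, and CON-2 to one with 38.4% of CON-5. These libraries may therefore not be independent, for FABP6 or for the next gene, and what made them alike was not tested. TMIGD1, an adhesion protein of mature enterocytes, stood at 34.6, 35.5, 0.986, 76.3 and 0.688 FPKM in high CON and 31.8, 0.296, 11.7, 305 and 0.0560 in high PET, against 0.140 to 0.359 in the low libraries. The high libraries CON-3, CON-6, PET-2 and PET-7 thus had under 1 FPKM of TMIGD1 while their scores were 10.6 to 15.8. HOXB6, a posterior patterning gene, was at 157 FPKM in PET-5 and at 5.43 to 17.5 in the other 9 high libraries.

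PET-1 and PET-4 shared another set of high levels. ENPP7 stood at 91.9, 1.97, 116, 0.0225 and 1.82 FPKM in high PET, against 0.592 to 2.11 in high CON and 0.250 to 2.19 in the low libraries. MEP1A stood at 19.7, 5.58, 17.0, 7.01 and 18.6 FPKM in high CON and 94.0, 13.0, 122, 0.946 and 24.4 in high PET, against 3.02, 3.00 and 3.33 in low CON and 0.676, 1.65 and 0.637 in low PET, where PET-5 was within the low range. SLC15A1 stood at 152, 37.8, 187, 21.8 and 47.9 FPKM in high PET, with 21.5 to 36.4 in high CON and 16.8 to 25.8 in the low libraries. PET-1 and PET-4 were the highest for all 3 genes, and PET-5, which had the highest score, was the lowest or second lowest high library for each. PET-1 lay close to a sum with 89.9% of PET-4, and what made the pair alike was not tested.

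**Figure D5:**
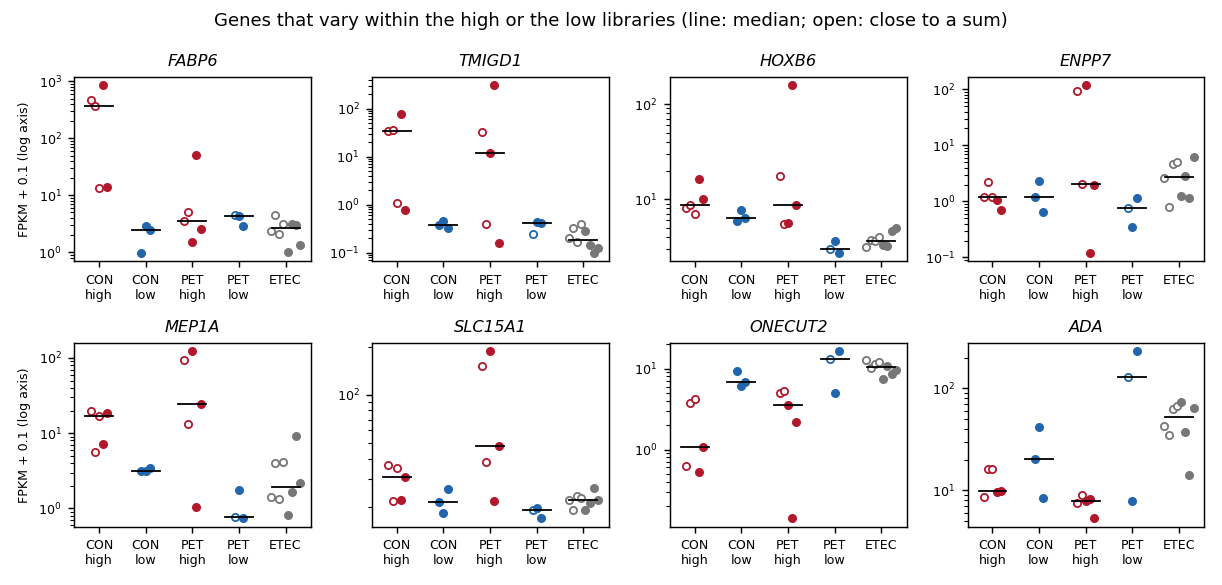
FPKM + 0.1 (log axis) of 8 genes that varied within the high or the low libraries, by group and class, with a line at the median and open circles for libraries close to a weighted sum of 2 others. FABP6 reaches 849 FPKM in CON-5 and stays at or under 51.3 in PET, ENPP7 and MEP1A are highest in PET-1 and PET-4, and ADA reaches 230.0 FPKM in the low library PET-8.

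The low libraries were also not uniform. ADA, adenosine deaminase, stood at 20.2, 41.5 and 8.28 FPKM in low CON and 129.7, 7.86 and 230.0 in low PET, against 5.22 to 15.95 in the high libraries. B3GNT6, a mucin-type glycosyltransferase, was at 78.5 FPKM in CON-4, 88.2 in CON-8 and 45.6 in the high CON-3, and under 1 FPKM in the other 13 libraries. ITLN2, an intelectin, stood at 33.4, 63.9 and 22.4 FPKM in low PET and 0.209, 23.1, 0.0943, 1.00 and 0.441 in high PET, but at 2.53, 10.7 and 0 in low CON, against 0.575 to 10.3 in high CON. The difference was -5.24 within PET and 0.55 within CON, and the classes overlapped in both groups. CON-4 was the highest of the 16 libraries for 9 of the 10 liver-type plasma protein genes in the table, with ALB, albumin, at 53.3 FPKM, and none of the 7 counted was called.

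Markers of other cells are given for the same libraries. The 3 T and NK cell genes in the table (of 32 listed) summed to 24.9 to 133 FPKM in the high and 21.8 to 26.6 in the low libraries, and 0 of 3 met the rule. GZMA, granzyme A, stood at 61.8, 47.2, 28.5, 90.5 and 35.7 FPKM in high CON against 18.0, 16.9 and 17.3 in low CON, and at 103, 18.6, 128, 73.5 and 19.3 against 18.3, 20.7 and 19.2 in PET, where PET-2 and PET-7 overlapped the low libraries. The 3 goblet genes summed to 1.35 to 47.8 FPKM in the high and 13.3 to 89.9 in the low libraries, the 3 crypt genes to 27.8 to 316 against 102 to 127, and the 2 B cell genes to 878 to 5131 against 1255 to 2056. None of these genes was called. The 2 counted neutrophil genes and the 1 macrophage gene, TREM2, were not called either. The 3 enterocyte structure genes (PDZK1, TMIGD1 and MTTP) had a median difference of 1.03 and 0 of 3 met the rule. The lists of proliferation, tuft cells, fibroblasts and muscle, endothelium, neurons and glia, and red cells are not analysed here. The part of these cells in the differences between high and low was not tested.

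The ETEC libraries were set beside the 2 classes as a description, since the score genes were chosen for being lower in ETEC and the table for differing between groups. For 80 of the 87 higher genes (92.0%), the median of the 8 ETEC libraries lay within the range of the 6 low libraries, beside 82.1% of all 531 genes counted. For 67 (77.0%) every ETEC library lay below every high one, beside 16% of all genes counted. OSR2 was at 0.0670 to 0.167 FPKM in ETEC, CA7 at 0 to 0.0472 and SLC13A1 at 0.0108 to 0.0469, all within or near the low ranges given above. For the 16 lower genes, the ETEC median lay within the low range for 10 (62.5%) and above every low library for 6, and for 10 genes (62.5%) every ETEC library lay above every high one, beside 5.27% of all genes counted. SDSL was at 10.9 to 74.4 FPKM in ETEC and SLC46A1 at 47.4 to 69.9. In the authors' deposited table, 70 of the 87 genes were called lower in ETEC than in CON and 1 higher, beside 42.7% lower and 29.9% higher over the 531 genes counted. Of the 87 in the authors' deposited table, 68 were called higher in PET than in ETEC, beside 27.7% of the genes counted, and 13 of the 16 were called higher in ETEC than in CON, beside 29.9%. These comparisons share the CON, PET and ETEC libraries with the description and are not independent of it.

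Whether the high minus low difference differed between CON and PET was tested with edgeR's quasi-likelihood test of the interaction, Benjamini-Hochberg adjusted over all genes that passed the filter. Of 612 genes outside the score, 5 (0.817%) were called, all with the larger difference in PET, and 68 had an unadjusted p under 0.05. None of the 87 higher genes and none of the 16 lower genes was among them, from which nothing is read, since these sets had to separate the same way in both groups. The 5 called were loci without a symbol, named here because they are few. Locus 2859 (chromosome 27, 47990784 to 47991520) stood at 6.75, 4.72, 5.78, 4.61 and 7.87 FPKM in high PET and had 0 counts in all 3 low PET libraries, against 0.117, 0.159, 0.0403, 0 and 0.158 in high CON and 0.0997, 0.360 and 0.104 in low CON. Its interaction was 10.97 ± 1.28 (SE, log2, edgeR adjusted p = 0.000634), a fitted size that depends on the prior count. Its neighbours locus 2858 (47984518 to 47989798, log2 10.11, edgeR adjusted p = 0.00109) and locus 2861 (48154575 to 48161384, 7.48, adjusted p = 0.00370) showed the same pattern. So did locus 2807 on the same chromosome (709953 to 710791, 9.43, edgeR adjusted p = 0.0269), and 3 of the 4 are matched to MARK kinases in the authors' annotation. Copies of such a family may share reads, so their levels are uncertain. Locus 2226 (chromosome 21, 59452588 to 59455860) stood at 2.10, 1.09, 2.42, 3.19 and 1.84 FPKM in high PET against 0.465, 0.351 and 0.378 in low PET, and at 0.0969, 0.476, 0.317, 0.200 and 0.107 against 0.618, 0.729 and 0.399 in CON (3.69 ± 0.72 (SE), edgeR adjusted p = 0.0200). Without the libraries close to a sum 0 of 600 genes were called by edgeR, with 30 at an unadjusted p under 0.05, and DESeq2 called 13 on the same libraries, the 5 among them. With all 16 libraries DESeq2 called 23, of which 8 had the higher difference in PET and 15 in CON, and voom called 59, with 23 higher in PET and 36 in CON. With the log2 score as a number in place of the classes edgeR called 5, with 1 higher in PET and 4 in CON, and 1 was among the 5 above. Leaving out 1 library at a time gave 3 to 13 edgeR calls, with 3 without CON-7, PET-3 or PET-8 and 13 without PET-5.

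PET was then compared with CON with the class as a covariate, a contrast that the labels give. edgeR called 220 of 612 genes (35.9%), 126 higher in PET (20.6%) and 94 lower (15.4%), at an adjusted p under 0.05. The table includes genes that the authors had called in this contrast, which bears on these shares. The fit also takes the libraries close to a sum as independent. Among the 87 higher genes 11 were called (12.6%, 7 higher and 4 lower in PET), among the 16 lower genes 3 (18.8%), and among the 424 tested genes in neither set 182 (42.9%). SLC13A1 was higher in PET by 1.22 ± 0.36 (SE, log2, edgeR adjusted p = 0.0158), SLC52A3 by 0.69 ± 0.24 (adjusted p = 0.0337), and DDAH1 lower, at -0.91 ± 0.32 (adjusted p = 0.0357). Without the libraries close to a sum these 3 genes lost their calls, at edgeR adjusted p = 0.207, 0.234 and 0.281. For OSR2 and CA7 the difference was 0.03 and -0.03 (edgeR adjusted p = 0.951 and 0.979). NTS was at -0.84 (edgeR adjusted p = 0.126) and ACE at 0.86 (adjusted p = 0.113), and neither passed.

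The genes with a symbol and the smallest adjusted p in this contrast were outside both sets. USP9Y, a Y-linked ubiquitin protease gene with an X-linked relative, was at 0 counts in all 8 CON libraries and in PET-8 and stood at 13.6, 13.9, 13.2, 18.2 and 12.1 FPKM in high PET and 6.10, 11.5 and 0 in low PET (edgeR adjusted p = 0.000853). ISG15, an interferon-induced ubiquitin-like protein, stood at 35.8, 24.2, 21.0, 26.5 and 19.6 and 8.32, 15.7 and 12.3 FPKM in high and low CON, against 8.59, 6.19, 8.21, 7.39 and 4.36 and 7.22, 7.24 and 5.82 in PET, a log2 difference of -1.49 ± 0.27 (SE, edgeR adjusted p = 0.00125). ZBTB16, a transcription factor of innate-like lymphocytes, was lower in PET at -1.45 ± 0.27 (edgeR adjusted p = 0.00140), and so was KLRF1, an NK cell receptor, at -1.49 ± 0.29 (adjusted p = 0.00174). RGSL1, a regulator of G-protein signalling-like gene, was higher at 2.22 ± 0.42 (edgeR adjusted p = 0.00155), at under 0.5 FPKM in every library. Within the high libraries and within the low ones, CON and PET did not overlap for any of these 5 genes except USP9Y, where PET-8 was at 0 like the CON libraries. Because these genes were chosen by the adjusted p of this same contrast, nothing is read from the lack of overlap, whose share over all tested genes was not counted. Without the libraries close to a sum 0 of 600 genes were called by edgeR, with 144 at an unadjusted p under 0.05, and the 5 stood at adjusted p = 0.108 to 0.158. DESeq2 called 88 on those libraries, 86 of them among the 220. USP9Y was one of 7 loci, of 8 on the Y chromosome in the table, that had no count in any CON library. The labels give no sex, and detection of USP9Y went with the group, apart from PET-8. Sex, and whatever else the labels leave out about the calves, therefore cannot be told apart from the group in the 220 calls. The classes of PET were not balanced for USP9Y either, since PET-8 is a low library and every high PET library had it.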

How the data were processed

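RNA sequencing of jejunal tissue gave 24 libraries, 8 each in CON, ETEC and PET, grouped by the sample titles. Per the labels' protocols, TRIzol was used for RNA extraction and small RNAs were enriched for the libraries, yet the deposited table is gene-level. Which aligner, counter, build and annotation were used is not given in the sources used here. The deposited values are, per the file headers, the read count of every gene in every library (whole numbers, not normalized) and FPKM, which divide by gene length and by all mapped fragments of a library. The deposited log2 fold changes, p-values and adjusted p-values of the authors' 3 comparisons were used only through their calls. No identifier matched the reference table (assembly Bosgru_T2T1.0, 0 matches), so symbols, positions and protein matches are those of the authors' table.

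Levels are log2(FPKM + 0.1), so the fold of low genes is understated. High and low were set by the score of the 11 genes and compared without a test. The members, gene lists and tests were chosen with earlier results of these data known, and the lists hold only genes that the authors had called. Of 32 lists with 772 genes, 26 had a member in the table (85 genes). Tests used edgeR 4.0.16 in R 4.3.3 (quasi-likelihood, filterByExpr, Benjamini-Hochberg over all genes that passed, threshold 0.05) with library sizes from the ratio of count to FPKM, since TMM would take a table of called genes as unchanged on balance. Counts of calls leave out the 11 score genes. Both procedures were tested on simulated data. Over 84 pairs of libraries within a group, a chi-square of the counts was 30.1 per gene or more, far beyond sampling noise. Closeness to a sum was taken from non-negative weights of every pair of other libraries over 510 genes averaging 20 counts or more.

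Genes named are the 10 largest higher and 10 largest lower that have a symbol and average 1 FPKM or more (9 lower ones exist), list members, up to 5 called genes per test, the 11 score genes, and loci where a count was 5 or fewer. Some genes that this rule names are not reported here. Alternatives were other pseudocounts (1 and 0.01), filters and fold minima, TMM, DESeq2 1.42.0 and its size factors, limma 3.58.1 (voom with sample quality weights), the replicate number as a block, the log2 score as a number, no class in the fit, each group alone, and leaving out each library or the libraries close to a sum. Leaving out the 3 libraries close to a high and a low one, and DESeq2 without the libraries close to a sum, were added after seeing the data. No sequence is printed, since no sequence table was used here.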

Additional observations from a re-analysis of the deposited data

Results flagged for a closer look

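Each named gene was examined within the 5 high CON, the 5 high PET and the 8 ETEC libraries, and the low libraries were not examined. Of the 218 groups of libraries, 19 held a library whose gap to the others was large for the range of its group. Chance gives about 1 in 20. In high PET, PET-5 was highest for CCL24 (35.2 FPKM, others 8.71 to 13.0) and lowest for ONECUT2 (0.0409, others 2.10 to 5.18), TFF1 (0, others 0.925 to 1.88) and PROZ (0.768, others 1.56 to 2.00). PET-2 was highest for C16orf89 (2.38, others 0.814 to 1.07) and lowest for SLC52A3 (1.60, others 2.81 to 3.20) and SLC34A2 (16.3, others 29.9 to 37.8), and PET-7 was highest for TLR5 (6.39, others 3.97 to 4.56). In high CON, CON-3 was highest for B3GNT6 (45.6, others 0.576 to 0.874) and CON-5 lowest for PROZ (0.0385, others 0.388 to 0.697). CON-3 lay close to a sum with 42.6% of the low CON-4, where B3GNT6 was also high. PET-2 lay close to a sum with 49.3% of the low PET-6.

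In ETEC, ETEC-8 was highest for CPO (0.0699, others 0 to 0.0246) and TLR5 (2.86, others 1.79 to 2.20), and lowest for NTS (3.79, others 5.45 to 6.84), TREM2 (1.28, others 2.37 to 3.35) and USP9Y (0, others 8.14 to 13.6). ETEC-7 was highest for OTOP2 (1.12, others 0.397 to 0.652) and lowest for ADA (14.2, others 35.1 to 73.9) and GZMA (12.2, others 16.3 to 20.4). ETEC-5 was highest for REC8 (16.5, others 11.6 to 13.5).

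The high minus low difference differed between PET and CON by edgeR's interaction test for the loci 2226 (3.69), 2807 (9.43), 2858 (10.11), 2859 (10.97) and 2861 (7.48, all log2 and larger in PET). The lowest and highest edgeR, DESeq2 or voom adjusted p over the 25 alternatives was 9.98e-10 and 0.232 for locus 2859, and 3.97e-07 and 0.473 for locus 2226. Locus 2807 missed the threshold in 10 of the 25 alternatives, locus 2226 in 6 and the other 3 loci in 3 each. Each of the 5 lost its edgeR call without the libraries close to a sum, and also with the replicate number as a block.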

How the results depend on the processing

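The 37 named genes that were called or set the score kept the sign of their high minus low difference under the 28 alternatives. They were chosen for separating the classes or define them, so most alternatives could not reverse a sign, and nothing is read from this. Of the 36 named genes in neither set, 14 changed sign in at least 1 alternative (42 of 1008 values), ITLN2 among them. Of all 2044 values, 1978 moved by less than the spread (SD) between libraries and 66 by more. Of the descriptive counts, higher genes fell from 87 to 51 with TMM and to 49 at 4-fold. The 16 lower genes became 9 with pseudocount 1, 55 with TMM, 4 at 4-fold, 6 when high and low had to separate over both groups together, 39 in CON alone, 34 in PET alone, 40 without the libraries close to a sum and 37 without the 3 close to a high and a low one. The other settings gave 72 to 123 higher genes. Leaving out each library gave 86 to 92 higher and 14 to 24 lower genes, with 24 without CON-2 or without CON-8. The 5 interaction calls, all with the higher difference in PET, became 23 with DESeq2 (15 higher in CON), 59 with voom (36 higher in CON), 5 with the log2 score as a number (4 higher in CON, 1 shared), 0 with the replicate block (52 at an unadjusted p under 0.05), 0 without the libraries close to a sum and 13 with DESeq2 there. Leaving out each library gave 3 to 13 interaction calls, with 3 without CON-7, PET-3 or PET-8 and 13 without PET-5. The 220 calls of PET against CON became 0 without the libraries close to a sum and 88 with DESeq2 there, and 190 to 273 when each library was left out. The replicate block gave 185 calls, with 174 of the 220 among them. Same-numbered CON and PET libraries correlated at -0.07 to 0.42 in their deviations from group and class means. Of the 8 numbers, 2 matched best in both directions (replicate 1 at 0.20 and replicate 5 at 0.42). The labels do not say whether the numbers pair the samples, and these correlations cannot decide it. The causes of these shifts were not tested, apart from the stricter fold, which removes genes by construction. Depth limits genes near 0, where a level rests on few counts.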
